A study of Mus musculus with 19 samples.

Results

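The genes for the subunits of oxidative phosphorylation were followed in GFP-sorted cells of the dorsal root ganglia (DRGs), which the study describes as sensory neurons. Groups differed in viral expression of the integrin subunit α9 and of kindlin-1, which activates integrins. They also differed in whether the dorsal root was crushed. Members were taken by gene name: protein-coding genes whose symbol begins with Nduf, Uqcr, Atp5 or mt-, or with Cox and a digit from 4 to 8, plus the succinate dehydrogenase genes Sdha, Sdhb, Sdhc and Sdhd and the cytochrome genes Cycs and Cyc1. This rule found 97 of the 12629 genes in the table, of which 10750 are protein coding. A further 21 genes matched by name and were set aside by biotype (16 mitochondrial tRNA genes, 2 mitochondrial rRNA genes and 3 processed pseudogenes). Of the 97 members, 89 are encoded in the nucleus and 8 in mitochondrial DNA. Complex I had 36 nuclear and 4 mitochondrial members, complex II had 4 nuclear members, complex III had 8 and 1, complex IV had 16 and 2, and complex V had 15 and 1. Cycs, the mobile electron carrier cytochrome c, and 9 assembly or related genes completed the list. The mitochondrial genes mt-Co2, mt-Nd3, mt-Nd4, mt-Nd4l and mt-Atp8 were not analysed here.

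The 19 libraries fall into 4 groups. GFP-naive (n = 5) received AAV5-fGFP, in which a CMV promoter drives farnesylated GFP, and no lesion. α9k1-naive (n = 6) received AAV5-α9-V5, driven by a CAG promoter, together with AAV5-kindlin1-GFP, driven by a CMV promoter, and no lesion. GFP-crush (n = 4) and α9k1-crush (n = 4) received the same viruses and a crush of the left cervical dorsal roots at the time of injection. Every group, controls included, carried virus injected into the left cervical DRGs, and the ganglia were taken 8 weeks later, dissociated and sorted for GFP, so that the libraries stand for transduced, GFP-positive cells of the ganglion; these promoters are active in many cell types and do not restrict expression to neurons. The sample labels describe C57BL/6 mice dissociated in papain, whereas the study's methods describe adult male Lewis rats dissociated in collagenase and trypsin. The reads of all groups were aligned to the mouse genome (mm10), and gene names and coordinates below are those of mouse. In the 19 libraries 3.87% to 4.05% of aligned bases differed from that genome. The species of the cells was not tested. Promoter windows and near-identical copies below are also those of the mouse reference, and need not be those of the cells sampled. The study describes the libraries of a group as biological replicates; neither it nor the labels say which animals each library came from, and the p-values below measure the spread between libraries.

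Oxidative phosphorylation passes electrons from NADH through complex I and from succinate through complex II to ubiquinone, then through complex III, cytochrome c and complex IV to oxygen, and the proton gradient built on the way drives ATP synthesis by complex V. Complexes I, III, IV and V are mosaics: a few catalytic subunits are translated inside the mitochondrion from mitochondrial DNA, and the remaining subunits come from nuclear genes and are imported. Sensory neurons, with their long axons, have a high demand for ATP, and subunits from both genomes are needed to assemble each of these complexes.

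All levels are log2 expression values that the authors normalised for gene length and depth, so that levels can be compared between genes per length; a difference of 1 is a 2-fold difference. Libraries held 36387140 to 87576777 read pairs, and 47.5% to 54.1% of reads aligned. α9k1-naive replicate 6 stood apart from the other 5 libraries of its group, with 4.76% of bases between genes against 3.50% to 3.74%, so the counts of members called in the comparisons with α9k1-naive are also given without it, and the named members whose call in them it changed are pointed out. The transgenes are visible as their own genes: Fermt1, for kindlin-1, was at 0.46 to 0.80 in GFP-naive and 0.42 to 0.72 in GFP-crush but at 5.18 to 6.00 in α9k1-naive and 6.42 to 7.73 in α9k1-crush, and Itga9, for α9 integrin, was at 1.77 to 2.40, 0.90 to 1.92, 2.38 to 5.16 and 5.53 to 7.51 in the same order, so that the lowest α9k1-naive library lay within the GFP-naive range. Fold changes are from limma over all 12629 genes, with group means and 3 principal components of the library metrics as covariates; a member is called higher or lower where the Benjamini-Hochberg adjusted p is under 0.1, the threshold of the study. The components differ between groups, most of all after crush: the variance factor of a contrast, by which the residual variance is multiplied, rose from 0.5 without covariates to 3.11 with them for α9k1-crush versus GFP-crush, against 0.367 to 0.654 for α9k1-naive versus GFP-naive. For this reason the fit without covariates is printed beside the counts over all members and by complex. Counts of marker and pathway lists are with covariates unless stated. The fitted log2 fold change and the difference of the group means had opposite signs for 13 of the 97 members when α9k1 was set against GFP in naive ganglia and for 25 after crush; when crush was set against naive, the number was 9 in the GFP groups and 16 in the α9k1 groups.

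Most members were among the most abundant genes of these cells. Of the members, 71 lay above the 90th percentile of mean level over all genes, and the median member stood at percentile 96.2. Cox6a1 and Cox8a, small nuclear subunits of complex IV, had GFP-naive means of 10.70 ± 0.12 and 10.76 ± 0.11 (SD, n = 5), and Atp5a1, the α subunit of the ATP synthase head, 8.97 ± 0.15. Among the mitochondrial members mt-Cytb (cytochrome b, 10.53 ± 0.13) and mt-Co1 (catalytic core of complex IV, 10.45 ± 0.24) were the highest in GFP-naive. At the other end, 7 members lay below the 20th percentile, among them the isoforms Ndufa4l2 (3.62 ± 0.30), Cox6b2 (3.65 ± 0.36) and Cox7a1 (3.52 ± 0.40) and the mitochondrial gene mt-Atp6 (4.46 ± 1.35). The group with the highest mean was GFP-crush for 73 of the 97 members, and no member had its highest mean in α9k1-naive. The lowest mean fell in α9k1-naive for 61 members and in α9k1-crush for 30.

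Averaged over the 89 nuclear members, the 5 GFP-naive libraries lay between 7.68 and 7.80 (mean 7.74 ± 0.05, SD), the 6 α9k1-naive libraries between 7.29 and 7.59 (mean 7.36 ± 0.12), the 4 GFP-crush libraries between 7.92 and 8.05 (mean 7.99 ± 0.05) and the 4 α9k1-crush libraries between 7.38 and 7.65 (mean 7.53 ± 0.11). The GFP groups did not overlap with the α9k1 groups, and GFP-crush lay above GFP-naive. Within α9k1-naive the highest library was replicate 6 at 7.59, and the next was at 7.35. Averaged over the 8 mitochondrial members, the libraries lay between 7.67 and 8.31 in GFP-naive, 6.46 and 7.26 in α9k1-naive, 7.65 and 8.16 in GFP-crush and 6.41 and 6.73 in α9k1-crush. Here too the α9k1 libraries lay below all GFP libraries, but the GFP groups with and without crush overlapped. The nuclear mean minus the mitochondrial mean was -0.21 ± 0.28 in GFP-naive, 0.02 ± 0.22 in GFP-crush, 0.57 ± 0.24 in α9k1-naive and 1.02 ± 0.11 in α9k1-crush (SD). The lowest α9k1 library, α9k1-naive replicate 6, stood at 0.327, and only GFP-crush replicate 2, at 0.333, reached that level among the GFP libraries; the next GFP library was at 0.12.

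Library metrics differed between the same groups. Bases between genes were 4.17% to 4.71% in GFP-naive and 4.88% to 5.98% in GFP-crush, against 3.50% to 3.74% in α9k1-naive replicates 1 to 5 and 3.18% to 3.64% in α9k1-crush. Ribosomal bases were 0.110% to 0.153% in GFP-naive and 0.0723% to 0.132% in GFP-crush, against 0.0216% to 0.036% in α9k1-naive replicates 1 to 5 and 0.0169% to 0.029% in α9k1-crush. α9k1-naive replicate 6, the library of its group with the highest nuclear mean, was at 4.76% and 0.0898%. These metrics are among those summarised by the covariates, and their part in the members' levels was not tested.

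**Figure D1:**
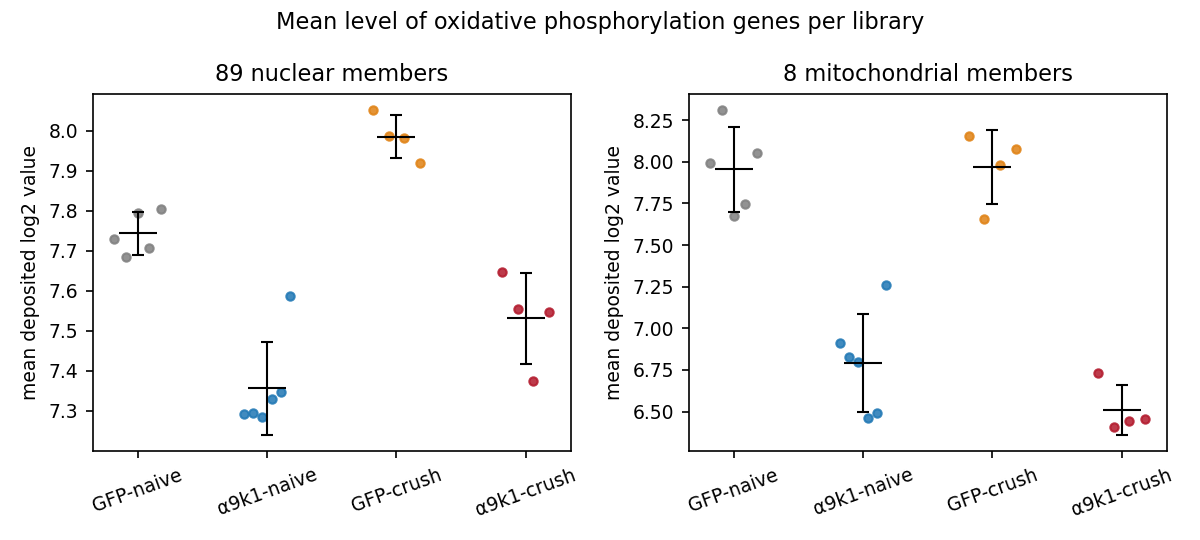
Mean log2 level of the 89 nuclear members and of the 8 mitochondrial members in each of the 19 libraries (points), by group, with the group mean as a line. Nuclear means ran from 7.29 in α9k1-naive to 8.05 in GFP-crush, and mitochondrial means from 6.41 in α9k1-crush to 8.31 in GFP-naive.

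The promoters of the nuclear members were read from RefSeq (GRCm38.p6, the mouse reference; 250 bases before to 50 after each gene start). A window was found for 74 of the 89 nuclear members. Atp5a1, Cox4i1, Cox4i2, Cox6c, Cyc1, Ndufa2, Ndufa4l2, Ndufaf6, Ndufb9, Ndufs1, Sdhc, Uqcrb, Uqcrc2 and Uqcrq were among those with no entry. Exact matches on either strand were counted for the core motifs of 4 factors known for nuclear respiratory genes: NRF1 (GCGCATGC), GABP (CCGGAAGT), the oestrogen-related receptors (ERR, CAAGGTCA) and YY1 (AAGATGGC). Matches of different motifs never overlapped in a member. The NRF1 core was in 13 windows (17.6%, against 5.5% of the windows of 8552 tested protein-coding genes), the YY1 core in 10 (13.5% against 4.7%), the ERR core in 4 (5.41% against 0.982%) and the GABP core in 5 (6.76% against 8.64%). Any of the 4 was found in 30 members (40.5% against 18.4%). A match is a description of letters in this window, and no binding was measured here.

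The 5 windows below were chosen because each of the 4 motifs is then shown at least once, in genes whose levels are described in the comparisons; Ndufa3, an accessory subunit of complex I called lower in α9k1-naive, was picked after its values were seen. Each runs from 200 bases before to 30 after the start, 5′ to 3′ on the strand of the gene, with the motif in capitals. They belong to Cycs (the NRF1 core; chr6:50566540-50566769, minus strand), Uqcr11 (the NRF1 and GABP cores; chr10:80406792-80407021, minus strand), Cox8a (the GABP core; chr19:7217587-7217816, minus strand), Atp5g3 (the ERR core; chr2:73911297-73911526, minus strand) and Ndufa3 (the YY1 core; chr7:3617173-3617402, plus strand).
Cycs: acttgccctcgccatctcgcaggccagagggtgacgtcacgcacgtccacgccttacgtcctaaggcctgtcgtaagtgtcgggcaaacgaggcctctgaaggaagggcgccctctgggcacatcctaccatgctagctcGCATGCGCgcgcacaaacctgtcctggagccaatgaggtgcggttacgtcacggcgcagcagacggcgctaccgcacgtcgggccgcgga
Uqcr11: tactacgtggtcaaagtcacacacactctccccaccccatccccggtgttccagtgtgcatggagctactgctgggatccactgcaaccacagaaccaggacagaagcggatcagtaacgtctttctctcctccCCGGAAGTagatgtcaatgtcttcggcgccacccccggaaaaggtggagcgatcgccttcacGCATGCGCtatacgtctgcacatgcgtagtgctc
Cox8a: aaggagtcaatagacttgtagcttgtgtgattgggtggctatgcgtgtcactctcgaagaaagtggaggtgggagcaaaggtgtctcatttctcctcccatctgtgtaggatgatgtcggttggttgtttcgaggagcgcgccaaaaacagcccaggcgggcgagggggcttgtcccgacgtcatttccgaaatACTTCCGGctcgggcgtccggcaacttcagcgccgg
Atp5g3: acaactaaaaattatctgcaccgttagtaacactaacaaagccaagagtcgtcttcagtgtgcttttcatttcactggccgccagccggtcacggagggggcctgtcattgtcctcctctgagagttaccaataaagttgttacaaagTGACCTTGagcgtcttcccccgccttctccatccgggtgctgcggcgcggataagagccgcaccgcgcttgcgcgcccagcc
Ndufa3: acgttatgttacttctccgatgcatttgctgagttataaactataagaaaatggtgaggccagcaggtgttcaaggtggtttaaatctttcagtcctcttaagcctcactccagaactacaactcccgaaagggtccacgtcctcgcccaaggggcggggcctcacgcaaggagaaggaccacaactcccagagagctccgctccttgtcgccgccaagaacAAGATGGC

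The comparison of α9k1-naive with GFP-naive asks what α9 integrin and kindlin-1 change in sorted cells of ganglia whose roots were not lesioned. 35 of the 97 members were lower in α9k1-naive and 1 was higher, while 17.6% of all genes were lower and 11.4% higher. The median log2 fold change was -0.20 for the nuclear and -0.85 for the mitochondrial members, against -0.08 over all genes. Without covariates 75 members were lower and 0 higher (all genes 29.5% and 16.5%), and the medians were -0.35 and -1.06. At an unadjusted p under 0.05, 44 were lower and 1 higher with covariates, beside 2716 lower and 1689 higher of all 12629 genes. Of the 35 members called lower, 20 remained called in all 19 fits that left out a library. Without α9k1-naive replicate 6, 32 members were lower and 0 higher, and the medians were -0.30 and -1.17. Of the named members, Cyc1 (-0.43), Atp5h (-0.69), mt-Atp6 (-1.56) and Uqcr11 (0.21) lost their call without that library.

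Complex I, the NADH dehydrogenase, had 13 of its 36 nuclear members lower and 0 higher (median -0.21). Of its 7 nuclear core subunits, which carry the flavin and the iron-sulfur clusters, 2 were lower, Ndufs7 and Ndufs8. Ndufs8 was at 8.40, 8.52, 8.67, 8.49 and 8.58 in the GFP-naive libraries and from 7.99 to 8.25 (median 8.02) in the 6 α9k1-naive libraries. All α9k1-naive libraries lay below the GFP-naive libraries, with a log2 fold change of -0.36 ± 0.10 (SE, adjusted p = 0.0213). Ndufs7 was at 8.95, 8.76, 8.79, 8.82 and 8.94 in the GFP-naive libraries and from 8.34 to 8.67 (median 8.37) in the 6 α9k1-naive libraries. Again the groups did not overlap, although replicate 6 came nearest to the GFP-naive libraries, and the log2 fold change was -0.33 ± 0.13 (SE, adjusted p = 0.0767), called in 13 of the 19 fits that left out a library. The call was also lost with a fit on the GFP-naive and α9k1-naive libraries alone (-0.26), with libraries centred on their median (-0.28) and with a trend of length and GC content removed (-0.17). The core subunits Ndufv1, Ndufv2, Ndufs1 and Ndufs3 had log2 fold changes of -0.15, -0.17, -0.18 and -0.26 and did not pass the test; that of Ndufs1 was opposite in sign to its group means (6.75 in GFP-naive and 6.88 in α9k1-naive). Of the accessory subunits 11 of 29 were lower, among them Ndufa3, whose window holds the YY1 core (-0.49 ± 0.14 SE, adjusted p = 0.0257). Without covariates 29 of the 36 were lower, 4 of them core subunits.

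Complex II, which also serves the citric acid cycle, had 1 of 4 members lower. Sdhd, a membrane anchor of the complex, was at 7.57, 7.67, 7.48, 7.61 and 7.58 in the GFP-naive libraries and from 6.99 to 7.31 (median 7.25) in the 6 α9k1-naive libraries. The groups did not overlap, and the log2 fold change was -0.46 ± 0.11 (SE, adjusted p = 0.00716). The catalytic subunit Sdha (0.03), the iron-sulfur subunit Sdhb (-0.04) and the other anchor Sdhc (-0.12) were not called. In complex III, 3 of 8 nuclear members were lower and 1 was higher. The Rieske iron-sulfur protein Uqcrfs1 was at 7.51, 7.68, 7.67, 7.73 and 7.61 in the GFP-naive libraries and from 7.14 to 7.37 (median 7.34) in the 6 α9k1-naive libraries. The α9k1-naive libraries were all lower, with a log2 fold change of -0.37 ± 0.10 (SE, adjusted p = 0.0155). Cyc1, cytochrome c1, was at -0.31 ± 0.13 (SE, adjusted p = 0.0951). It was called in 5 of the 19 fits that left out a library, and the same 3 alternatives that cost Ndufs7 its call did so here, at -0.22, -0.27 and -0.16 in that order; Uqcrfs1 lost its call in the fit on those libraries alone (-0.30). The core proteins Uqcrc1 (-0.16, with group means of 8.98 in both groups) and Uqcrc2 (-0.17) were not called. Without covariates 1 of 4 members of complex II and 5 of 8 nuclear members of complex III were lower, and 0 were higher.

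Uqcr11, a small accessory subunit of complex III, was the 1 member called higher. It was at 9.91, 9.84, 9.96, 9.85 and 10.12 in the GFP-naive libraries and from 9.70 to 10.24 (median 9.86) in the 6 α9k1-naive libraries. The ranges overlapped. The log2 fold change was 0.23 ± 0.08 (SE, adjusted p = 0.0575) with covariates and -0.05 without them, so its direction depended on the covariates, and the call was lost without GFP-naive replicate 1, GFP-naive replicate 2 or α9k1-naive replicate 6.

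Complex IV, cytochrome c oxidase, had 8 of 16 nuclear members lower and 0 higher, with the lowest nuclear median of the complexes (-0.32). Without covariates 15 of the 16 were lower. Cox5a, a nuclear subunit on the matrix side of the enzyme, was at 8.50, 8.32, 8.60, 8.32 and 8.58 in the GFP-naive libraries and from 7.48 to 8.04 (median 7.65) in the 6 α9k1-naive libraries. The groups were well separated, with a log2 fold change of -0.52 ± 0.10 (SE, adjusted p = 0.0019). Cox8a, whose window holds the GABP core, was at 10.73, 10.68, 10.81, 10.66 and 10.92 in the GFP-naive libraries and from 9.76 to 10.52 (median 9.97) in the 6 α9k1-naive libraries. Replicate 6 was again the highest α9k1-naive library, still below all GFP-naive libraries, and the log2 fold change was -0.39 ± 0.09 (SE, adjusted p = 0.00843). Cox5b (-0.38), Cox6b1 (-0.31) and Cox4i1 (-0.30), all structural subunits present in most tissues, were also called lower, Cox4i1 in 11 of the 19 fits that left out a library. Cox4i1 lost its call in the fit on the GFP-naive and α9k1-naive libraries alone (-0.25), with median centring (-0.25) and with the length and GC trend removed (-0.16), and Cox6b1 in the fit on those libraries alone (-0.24) and with median centring (-0.26). Cox6a1 (-0.16), Cox7a2 (0.05) and Cox7b (-0.27) did not pass the test. The direction of Cox7a2 depended on the covariates: its group means were 9.41 in GFP-naive and 9.17 in α9k1-naive, and without covariates it was called lower at -0.25.

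Complex V, ATP synthase, had 3 of 15 nuclear members lower and 0 higher (median -0.18), a share close to the 17.6% of all genes called lower. The 3 were Atp5g1, Atp5g3 and Atp5h. Without covariates 13 of the 15 were lower, 3 of them among the 5 subunits of the catalytic F1 head. Of the 3 genes for the c subunit, whose ring turns in the membrane, Atp5g1 (-0.42, adjusted p = 0.0255) and Atp5g3 (-0.42, adjusted p = 0.0541) were lower and Atp5g2 was at -0.06 and not called; these genes code for the same mature protein. Atp5g3 was at 10.17, 10.01, 9.97, 10.03 and 10.06 in the GFP-naive libraries and from 9.33 to 9.95 (median 9.56) in the 6 α9k1-naive libraries. All α9k1-naive libraries lay below GFP-naive. Without α9k1-naive replicate 6 the log2 fold change of Atp5g3 was -0.77. Its call was lost in the fit on those groups alone (-0.28) and with median centring (-0.37). Atp5h, a stalk subunit, had the largest nuclear fold change in the complex at -0.90 ± 0.22 (SE, adjusted p = 0.00952). The group means of Atp5h, without adjustment for covariates, were 5.44 in GFP-naive and 4.18 in α9k1-naive. In the table are 3 near-identical copies of Atp5h, so reads may be split between them and Atp5h. The call of Atp5h was lost in 1 of the 19 fits, the one without α9k1-naive replicate 6 (-0.69). The F1 subunits Atp5a1 (-0.16), Atp5b (-0.18) and Atp5c1 (-0.27) were not called. Cycs was at -0.24 (adjusted p = 0.118). Of the 9 assembly and related genes 1 was lower, Ndufaf1 at -0.79, which is named because its count is small and was chosen after its value was seen.

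**Figure D2:**
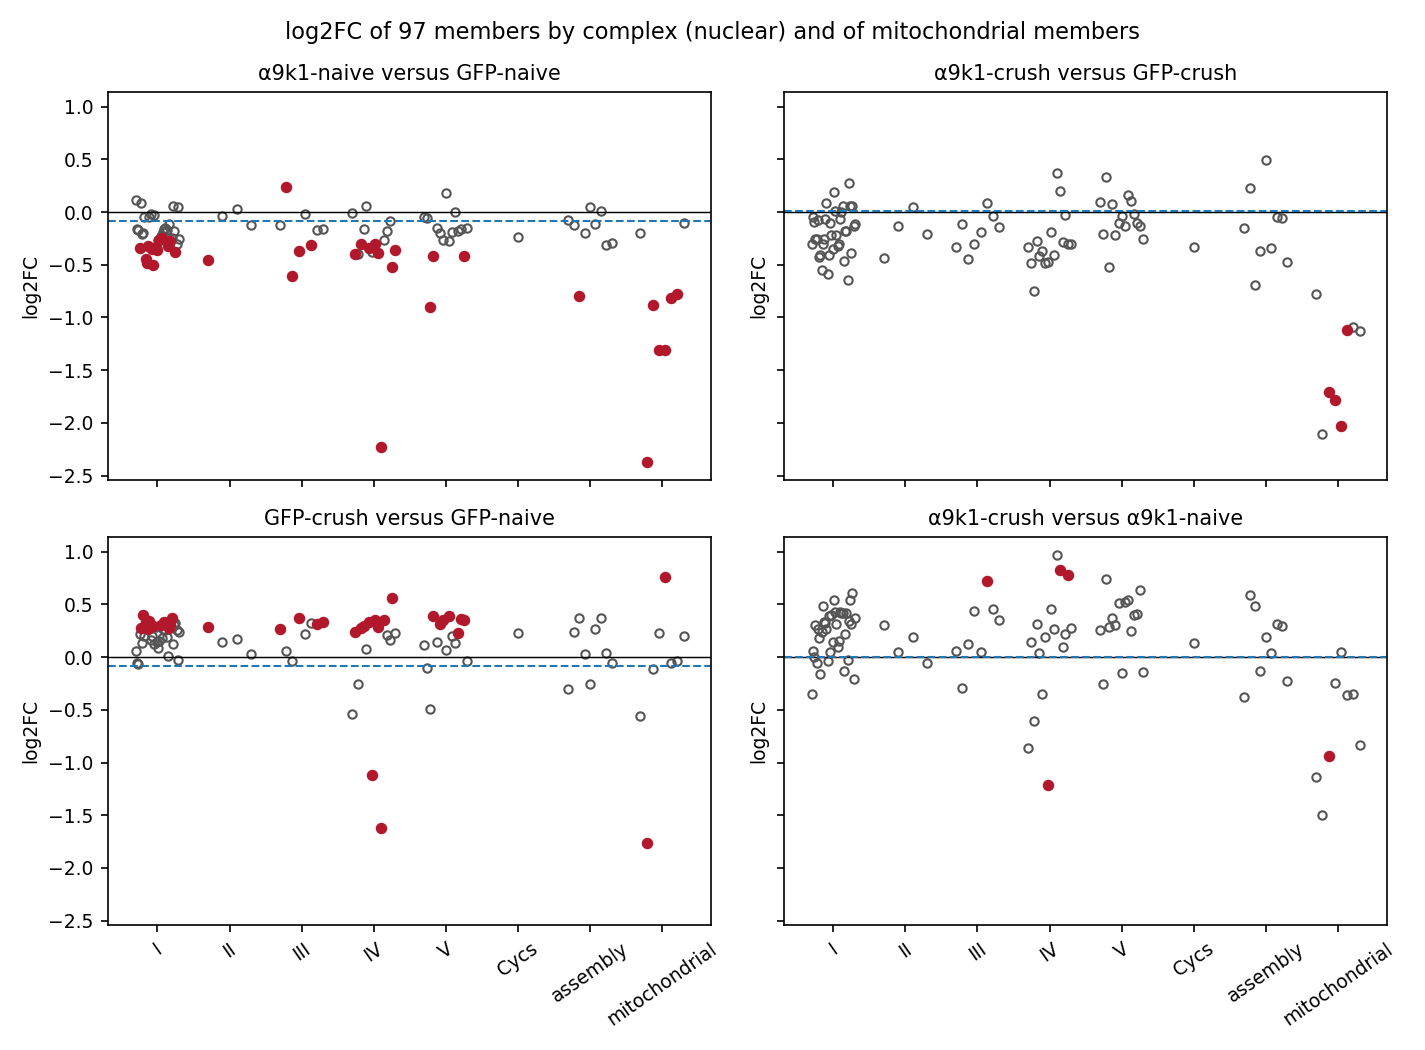
Log2 fold change of each of the 97 members in the 4 comparisons, grouped by complex and origin. Filled points passed an adjusted p under 0.1 in limma with covariates. The solid line marks 0 and the dashed line the median over all genes. In α9k1-naive versus GFP-naive 35 members lie below 0 as calls, and in GFP-crush versus GFP-naive 32 lie above 0 as calls.

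All 8 mitochondrial members had a negative log2 fold change in α9k1-naive versus GFP-naive, and 6 were called lower (without covariates 7). The genes sit on the mitochondrial chromosome and are transcribed as long polycistronic RNAs, mt-Nd6 from the light strand and the other 7 from the heavy strand. mt-Nd1 (chrMT:2751-3707), a membrane subunit of complex I, was at 9.87, 10.04, 9.45, 9.98 and 9.96 in the GFP-naive libraries and from 8.32 to 8.81 (median 8.62) in the 6 α9k1-naive libraries. The gap between the groups was wider than the spread within either, with a log2 fold change of -1.31 ± 0.16 (SE, adjusted p = 3.16e-05). mt-Nd2 (chrMT:3914-4951), of the same complex, was at 6.67, 6.71, 6.25, 6.81 and 6.84 in the GFP-naive libraries and from 5.14 to 5.61 (median 5.36) in the 6 α9k1-naive libraries. Its fitted log2 fold change was -1.31 ± 0.20 (SE, adjusted p = 2.59e-04). mt-Cytb (chrMT:14145-15288), the cytochrome b of complex III, was at 10.51, 10.62, 10.31, 10.54 and 10.65 in the GFP-naive libraries and from 9.39 to 9.94 (median 9.55) in the 6 α9k1-naive libraries. Its highest α9k1-naive library was replicate 6, below all GFP-naive libraries, and the log2 fold change was -0.81 ± 0.12 (SE, adjusted p = 2.55e-04).

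The complex IV core genes mt-Co1 (chrMT:5328-6872, -0.78) and mt-Co3 (chrMT:8607-9390, -0.88) were also lower without overlap of the groups. mt-Nd5 (chrMT:11742-13565, -0.10 ± 0.27 SE, adjusted p = 0.831) and mt-Nd6 (chrMT:13552-14070, -0.20 ± 0.54 SE, adjusted p = 0.828) did not pass the test. mt-Atp6 (chrMT:7927-8607), the proton channel subunit of complex V, had the largest fold change (-2.37 ± 0.57 SE, adjusted p = 0.00843) at a low and variable level: 4.62, 5.75, 5.09, 2.19 and 4.67 in the GFP-naive libraries and from 1.36 to 2.34 (median 1.55) in the 6 α9k1-naive libraries. The ranges overlapped, and the call was lost without α9k1-naive replicate 6 (-1.56).

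The level of mt-Atp6 has to be read with its nuclear copy. Gm10925, an unprocessed pseudogene on chromosome 1, matches 678 of the 681 bases of mt-Atp6 and was at 12.84 in GFP-naive, where mt-Atp6 was at 4.46. Reads of such a pair can be placed on either gene, so the level of mt-Atp6 is uncertain. Gm10925 was lower in α9k1-naive as well (-0.92 ± 0.15 SE, adjusted p = 3.97e-04). Of the 6 nuclear copies that share at least 95% of their bases over 200 or more bases with a mitochondrial member, 5 were lower in α9k1-naive and 0 higher, and their median log2 fold change was -0.92. mt-Cytb, mt-Nd1 and mt-Nd6 had no such copy in the table. Of these 3, mt-Cytb and mt-Nd1 were called lower. Both mitochondrial rRNA genes were lower too, mt-Rnr1 at -1.03 ± 0.14 (SE, adjusted p = 7.24e-05) and mt-Rnr2 at -1.04 ± 0.14 (SE, adjusted p = 1.21e-04). Of the 16 mitochondrial tRNA genes, in contrast, 7 were higher and 0 lower (median 0.69); mt-Tv (2.68) and mt-Tt (2.67) had the largest fold changes of the 7. Without covariates 5 were higher and 1 lower (median 0.20).

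**Figure D3:**
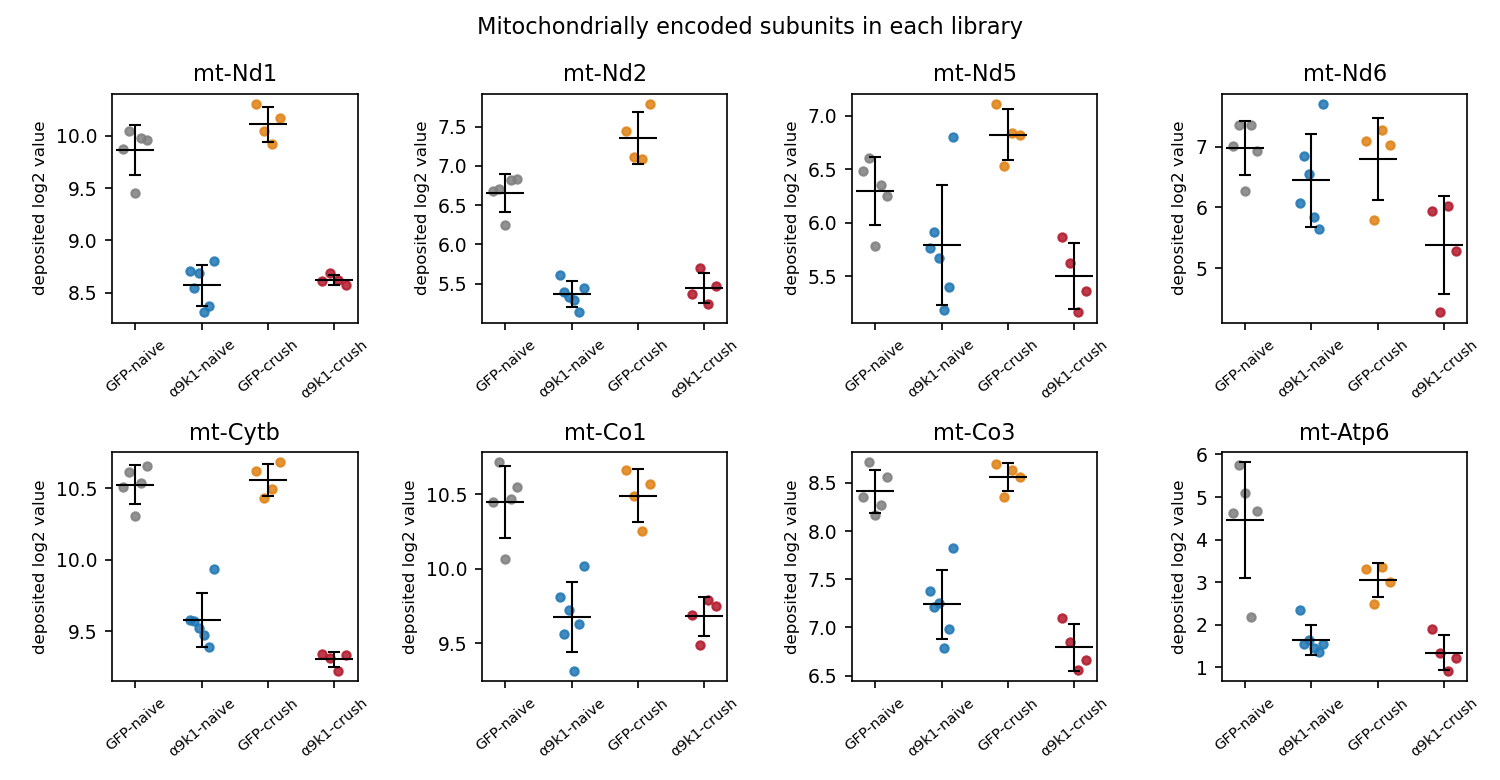
Log2 level of each of the 8 mitochondrial members in every library, by group, with the group mean as a line. For mt-Nd1 the group means were 9.86 in GFP-naive, 8.57 in α9k1-naive, 10.11 in GFP-crush and 8.62 in α9k1-crush; mt-Atp6 was the lowest of the 8 in all groups.

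Markers of other cells moved with the same comparison. In α9k1-naive, 7 of 8 Schwann cell markers were lower (mean over the list 8.82 to 9.13 in GFP-naive and 7.14 to 7.59 in α9k1-naive), as were 4 of 4 endothelial markers (3.69 to 4.22 and 1.77 to 3.11) and 5 of 5 fibroblast markers (6.74 to 7.08 and 3.80 to 5.64). Macrophage markers were higher, 5 of 8 (3.58 to 4.13 and 4.65 to 5.30), and so were 4 of 8 markers of satellite glia (8.12 to 8.45 and 8.41 to 8.66). Of 10 neuronal markers 3 were lower and 1 higher (8.30 to 8.61 and 7.82 to 8.16); the neurofilament genes Nefm (-2.42) and Nefl (-2.10) changed most. Of 7 markers of large diameter neurons 2 were higher and 2 lower (list means 6.26 to 6.82 and 6.18 to 6.52), and of 7 nociceptor markers 1 and 0 (7.08 to 7.72 and 7.26 to 7.87). None of the 3 muscle markers measured was called in limma with covariates, or passed an unadjusted p under 0.05. The mean of 4 erythrocyte genes, a list added after the data were seen, was 7.48 to 8.22 in GFP-naive and 2.01 to 2.33 in α9k1-naive replicates 1, 2, 4 and 5, while replicate 6 stood at 6.49 and replicate 3 at 11.80. Of these genes 4 of 4 were lower in α9k1-naive without covariates, and limma called none of them with covariates (0 also at an unadjusted p under 0.05; median log2 fold change -2.69). In bulk libraries, fewer cells of a type and less RNA per cell cannot be told apart, and the part of other cells in the members' changes was not tested.

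The comparison of α9k1-crush with GFP-crush asks what the integrin changes in sorted cells of ganglia with a crushed root. This is the setting in which the study examined axon regeneration. With covariates 4 members were lower, all mitochondrial, and 0 were higher, while 0.182% of all genes were lower and 0.728% higher. Median log2 fold changes were -0.19 for nuclear and -1.42 for mitochondrial members, against 0.01 over all genes. At an unadjusted p under 0.05, 5 of 89 nuclear members were lower and 0 higher, and 5 of 8 mitochondrial members were lower. Over all 12629 genes, 489 were lower and 662 higher at that p. Without covariates 72 members were lower and 8 higher, beside 28.3% and 29.6% of all genes, with medians of -0.52 and -1.45. The number called lower with covariates ran from 0 without α9k1-naive replicate 4 to 5 without α9k1-naive replicate 6; it was 1 without GFP-naive replicate 1 or 3 and 2 without α9k1-naive replicate 1, α9k1-naive replicate 3 or α9k1-crush replicate 4.

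The 4 members were mt-Nd1, mt-Nd2, mt-Co3 and mt-Cytb. mt-Nd2 was at 7.44, 7.11, 7.08 and 7.79 in the GFP-crush libraries and 5.36, 5.69, 5.24 and 5.47 in the α9k1-crush libraries. No α9k1-crush library reached the GFP-crush range, and the log2 fold change was -2.03 ± 0.43 (SE, adjusted p = 0.045). mt-Nd1 was at 10.30, 10.04, 9.92 and 10.17 in the GFP-crush libraries and 8.62, 8.68, 8.62 and 8.57 in the α9k1-crush libraries. It was again fully separated, at -1.79 ± 0.34 (SE, adjusted p = 0.0237). mt-Co3, a core subunit of complex IV, was at 8.69, 8.36, 8.63 and 8.57 in the GFP-crush libraries and 7.10, 6.85, 6.56 and 6.66 in the α9k1-crush libraries. The log2 fold change of mt-Co3 was -1.71 ± 0.37 (SE, adjusted p = 0.0521) and that of mt-Cytb -1.12 ± 0.27 (SE, adjusted p = 0.0906), both without overlap of the groups. Of the 19 fits that left out a library, 18 called mt-Nd1, 16 mt-Nd2, 13 mt-Co3 and 3 mt-Cytb. In a fit on the GFP-crush and α9k1-crush libraries alone none of the 4 was called, and the log2 fold changes were -1.14 for mt-Nd1, -0.89 for mt-Nd2, -0.99 for mt-Co3 and -0.70 for mt-Cytb. mt-Co1 (-1.09), mt-Nd5 (-1.13), mt-Nd6 (-0.78) and mt-Atp6 (-2.11) had negative fold changes that did not pass the test. Of the nuclear copies, Gm10925 (-1.50) and Gm4076, a copy of mt-Nd5 on chromosome 13 (-1.36), were lower. mt-Rnr1 (-1.58) and mt-Rnr2 (-1.32) were lower as well, and of the 16 tRNA genes 0 were called (0 higher and 1 lower at an unadjusted p under 0.05).

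The calls among nuclear members depended on the covariates, and without them the fold changes went with transcript length. Without covariates, the 8 members that were higher included Ndufs1, Ndufv1, Sdha, Uqcrc1 and Atp5a1, and Ndufa10 and Atp5sl, which are named here after their values were seen, with reference transcripts of 1661 to 2900 bases, against a median of 1231 bases over the 89 nuclear members and 2894 over all genes. Ndufs1, the largest nuclear core subunit of complex I, was at 7.17, 7.36, 6.53 and 6.56 in the GFP-crush libraries and 7.99, 7.63, 8.03 and 7.81 in the α9k1-crush libraries. All α9k1-crush libraries lay above GFP-crush, and the log2 fold change was 0.96 without covariates and 0.05 with them. Cox8a, of the short members, was at 11.30, 10.99, 11.28 and 11.17 in the GFP-crush libraries and 10.15, 10.13, 9.88 and 10.14 in the α9k1-crush libraries. Here all α9k1-crush libraries lay below, at -1.11 without covariates and -0.49 with them (adjusted p = 0.499). Split by transcript length, the 44 shorter nuclear members gave 0 higher and 39 lower without covariates (median -0.72), and the 45 longer ones 8 higher and 25 lower (median -0.22). Across the 89 nuclear members, which share libraries and are not independent, log2 fold change and log10 length had r = 0.49 (Spearman 0.53) without covariates and r = 0.20 (Spearman 0.25) with them; over 12610 genes with a length, r was 0.33 (Spearman 0.41) without covariates. With a trend of length and GC content removed from each library, chosen after the data were seen for the fit without covariates, 40 members were lower and 17 higher in that fit, and the nuclear median moved from -0.52 to -0.09 while the mitochondrial median was -1.06.

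**Figure D4:**
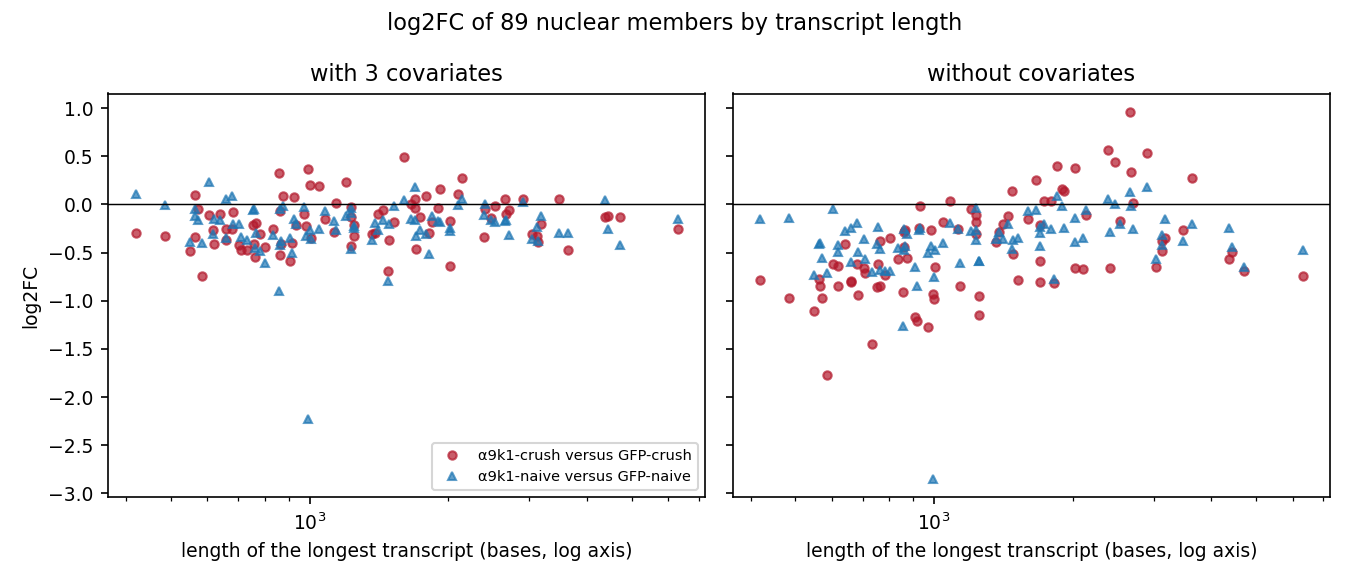
Log2 fold change of the 89 nuclear members against the length of the reference transcript (log10 axis) for α9k1-crush versus GFP-crush, without covariates and with them. Without covariates the 44 shorter members had a median of -0.72 and the 45 longer members -0.22; with covariates the medians were -0.25 and -0.13.

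Markers of other cells also differed in level between the crushed groups. With covariates limma called none of the markers of neurons, satellite glia, Schwann cells, macrophages, endothelial cells and fibroblasts, where 1 neuronal marker (lower), 1 satellite glia marker (lower), 1 Schwann cell marker (lower), 1 macrophage marker (higher) and 2 fibroblast markers (higher) passed an unadjusted p under 0.05. Without covariates 6 of 8 Schwann cell markers were lower in α9k1-crush, with list means of 8.97 to 9.48 in GFP-crush and 8.19 to 8.96 in α9k1-crush and no overlap of the groups, and so were 3 of 4 endothelial markers (3.50 to 4.53 in GFP-crush and 1.84 to 3.74 in α9k1-crush). Of 8 markers of satellite glia 3 were lower and 1 was higher (7.36 to 7.85 in GFP-crush and 6.86 to 7.42 in α9k1-crush), and of 10 neuronal markers 4 were higher and 1 was lower (8.54 to 8.89 in GFP-crush and 8.87 to 9.06 in α9k1-crush). Macrophage markers had 2 of 8 higher (4.88 to 5.60 in GFP-crush and 4.96 to 5.90 in α9k1-crush) and fibroblast markers 1 of 5 (5.47 to 5.87 in GFP-crush and 5.09 to 5.80 in α9k1-crush). Of 7 markers of large diameter neurons 3 were higher without covariates (6.44 to 7.01 in GFP-crush and 6.82 to 7.37 in α9k1-crush), and of 7 nociceptor markers 1 was lower (6.36 to 7.45 in GFP-crush and 5.12 to 7.53 in α9k1-crush). The 4 erythrocyte genes had list means of 4.47 to 6.52 in GFP-crush and 1.29 to 5.22 in α9k1-crush. The part of these cells in the members' changes was not tested.

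GFP-crush against GFP-naive asks what a dorsal root crush leaves behind after 8 weeks in sorted cells without the viral integrin. This comparison uses the same GFP-naive libraries as the first comparison. 32 members were higher and 3 lower, beside 7.39% and 15.7% of all genes. Nuclear members had a median log2 fold change of 0.23 (31 higher, 2 lower) and mitochondrial members -0.04 (1 and 1), against -0.08 over all genes. Without covariates 58 were higher and 3 lower (all genes 11.0% and 20.1%). The changes were small and the number called higher depended on single libraries: it was 4 without GFP-naive replicate 2, 5 without GFP-crush replicate 1, 6 without GFP-crush replicate 2, 15 without GFP-naive replicate 3 and 18 without GFP-naive replicate 4. Cox5a, Ndufb9, Uqcrfs1 and mt-Nd2 were higher, and Cox4i2 and Ndufa4l2 lower, in all 19 of these fits. It was 9 after quantile normalisation and 58 with libraries centred on their median, and the nuclear median was then 0.14 and 0.37. In a fit on the GFP-naive and GFP-crush libraries alone 5 members were called higher, and the calls of Sdhd, Uqcrc1, Uqcrc2, Uqcrfs1, Cox4i1, Atp5a1, Atp5c1, Atp5g1 and mt-Atp6 described below were lost. Their log2 fold changes were larger in size in that fit, at 0.44, 0.43, 0.42, 0.52, 0.53, 0.56, 0.50, 0.53 and -2.66 in that order.

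Cox5a rose from 8.50, 8.32, 8.60, 8.32 and 8.58 in the GFP-naive libraries to 9.23, 9.07, 9.09 and 9.19 in the GFP-crush libraries. The groups were separate, and the log2 fold change was 0.56 ± 0.10 (SE, adjusted p = 0.00282). Uqcrfs1 was at 7.51, 7.68, 7.67, 7.73 and 7.61 in the GFP-naive libraries and 8.20, 8.17, 7.93 and 8.08 in the GFP-crush libraries. All GFP-crush libraries were the higher ones, with a fitted log2 fold change of 0.37 ± 0.10 (SE, adjusted p = 0.0213). Ndufb9, an accessory subunit of complex I, was at 9.55, 9.67, 9.59, 9.54 and 9.59 in the GFP-naive libraries and 10.19, 10.14, 10.02 and 10.16 in the GFP-crush libraries. It rose without overlap, with a fitted log2 fold change of 0.40 ± 0.10 (SE, adjusted p = 0.0147).

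By complex, 11 of 36 nuclear members of complex I were higher, 1 of 4 in complex II (Sdhd, 0.28, called in 8 of the 19 fits that left out a library), 4 of 8 in complex III, 8 of 16 in complex IV and 7 of 15 in complex V, where 3 of the 5 F1 subunits were among them. None of the 9 assembly and related genes was called by limma (median 0.04). At an unadjusted p under 0.05, 0 of them were higher and 1 lower, beside 1310 and 2589 of 12629 genes. Without covariates the number higher was 25 for complex I, 2 for complex II, 6 for complex III, 12 for complex IV, 9 for complex V (4 in F1) and 2 for the assembly and related genes. In complex III both large core proteins, Uqcrc1 (0.33) and Uqcrc2 (0.32), were called, and in complex V Atp5a1 (0.36), Atp5c1 (0.39), Atp5g1 (0.35) and Atp5g3 (0.39). Of the 19 fits that left out a library, 15 called Uqcrc1, 14 Uqcrc2, 12 Atp5a1, 16 Atp5c1, 13 Atp5g1 and 10 Atp5g3. After quantile normalisation the calls of Uqcrc1 (0.16), Uqcrc2 (0.28), Atp5a1 (0.21), Atp5g1 (0.27) and Atp5g3 (0.29) were lost. That of Atp5g3 was also lost with the length and GC trend removed (0.35). Of the mitochondrial members mt-Nd2 was higher (0.76 ± 0.20 SE, adjusted p = 0.0206), with group means of 6.66 in GFP-naive and 7.36 in GFP-crush. mt-Atp6 was lower (-1.76 ± 0.58 SE, adjusted p = 0.0533), while mt-Nd1 (0.23), mt-Cytb (-0.05), mt-Co1 (-0.04) and mt-Co3 (-0.11) were not called. For mt-Cytb, mt-Co1 and mt-Co3 the sign depended on the covariates, with 0.034, 0.042 and 0.15 without them, also not called. The copy Gm10925, at 12.84 and 13.10, had a log2 fold change of 0.20 ± 0.15 (SE, adjusted p = 0.373). Of the 16 tRNA genes 7 were higher and 1 lower, and without covariates 9 were higher and 0 lower. Both comparisons with GFP-naive share those 5 libraries as the control, so their values are not independent.

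Neuronal markers rose with crush in the GFP groups, 6 of 10 higher and 1 lower (list mean 8.30 to 8.61 in GFP-naive and 8.54 to 8.89 in GFP-crush). Macrophage markers were higher (5 of 8; 3.58 to 4.13 and 4.88 to 5.60), and markers of satellite glia (5 of 8 lower; 8.12 to 8.45 and 7.36 to 7.85) and fibroblasts (4 of 5 lower; 6.74 to 7.08 and 5.47 to 5.87) were lower. Of 7 markers of large diameter neurons 3 were higher and 1 lower (list means 6.26 to 6.82 and 6.44 to 7.01), and of 7 nociceptor markers 0 and 1 (7.08 to 7.72 and 6.36 to 7.45). Their part in the members' changes was not tested.

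Crush was also compared within the integrin groups, α9k1-crush against α9k1-naive. 3 members were higher (Cox7b, Cox5a and Cyc1) and 2 lower (Cox4i2 and mt-Co3), beside 4.47% and 5.27% of all genes. At an unadjusted p under 0.05, 18 were higher and 2 lower, beside 1324 higher and 1390 lower of all 12629 genes. The median log2 fold change was 0.27 for nuclear and -0.59 for mitochondrial members, against 0.00 for all genes. Without covariates 46 were higher and 12 lower, beside 28.5% and 27.1% of all genes. Cox5a ranged from 7.48 to 8.04 (median 7.65) in the 6 α9k1-naive libraries and was at 8.42, 8.32, 8.12 and 8.45 in the α9k1-crush libraries. It was higher in all α9k1-crush libraries (0.78 ± 0.18 SE, adjusted p = 0.0224) and was the only member called in all 19 fits that left out a library. Cyc1 ranged from 8.11 to 8.45 (median 8.38) in the 6 α9k1-naive libraries and was at 9.08, 8.79, 8.93 and 9.02 in the α9k1-crush libraries. These groups too were apart, with a log2 fold change of 0.72 ± 0.23 (SE, adjusted p = 0.0813), called in 8 of the 19 fits. Cox7b, another small subunit of complex IV, had overlapping groups and means of 7.24 and 7.56; its log2 fold change was 0.83 ± 0.23 (SE, adjusted p = 0.0464) with covariates and 0.32 without them. mt-Co3 was at -0.94 ± 0.31 (SE, adjusted p = 0.0886), with overlapping groups. It was called in 7 of the 19 fits, and not without α9k1-naive replicate 6 (-0.85). In a fit on the α9k1-naive and α9k1-crush libraries alone none of the 5 members was called. Their log2 fold changes were larger in size in that fit: 1.25 for Cox7b, 0.98 for Cox5a, 1.12 for Cyc1, -1.47 for Cox4i2 and -1.57 for mt-Co3. The number called higher ran from 1 without α9k1-naive replicate 1 or 4 to 7 without α9k1-naive replicate 6, and was 5 without GFP-crush replicate 2; without α9k1-naive replicate 6, 1 member was lower. In this comparison 6 of 8 Schwann cell markers were higher (7.14 to 7.59 in α9k1-naive and 8.19 to 8.96 in α9k1-crush), 3 of 10 neuronal markers were higher (7.82 to 8.16 and 8.87 to 9.06) and 5 of 8 markers of satellite glia were lower (8.41 to 8.66 and 6.86 to 7.42). Of 7 markers of large diameter neurons 2 were higher and 2 lower (list means 6.18 to 6.52 and 6.82 to 7.37), and of 7 nociceptor markers 0 and 1 (7.26 to 7.87 and 5.12 to 7.53); without covariates 5 nociceptor markers were lower. Fibroblast markers were higher in 4 of 5 cases (3.80 to 5.64 and 5.09 to 5.80), pericyte markers, a list added after the data were seen, in 3 of 5 (1.09 to 1.87 and 1.83 to 2.58), macrophage markers in 2 of 8 (4.65 to 5.30 and 4.96 to 5.90) and endothelial markers in 1 of 4 (1.77 to 3.11 and 1.84 to 3.74). Their part in the members' changes was not tested.

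The interaction, the effect of α9k1 after crush minus its effect without crush, called 0 members higher and 0 lower in limma with covariates, beside 1.35% and 0.847% of all genes. At an unadjusted p under 0.05, 2 members were higher and 2 lower, beside 1118 higher and 648 lower of all 12629 genes. Without covariates 9 members were called higher and 20 lower at the adjusted p (all genes 23.3% and 16.1%). A difference between the integrin effects in naive and crushed ganglia was therefore not shown for a member with covariates. Side by side, the medians of the mitochondrial members were -0.85 without crush and -1.42 with crush, and the interaction median was -0.53; for nuclear members they were -0.20, -0.19 and 0.03.

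Several complex IV subunits exist as a broadly used form and a form restricted to some tissues or to low oxygen. Ndufa4l2 is a hypoxia-inducible relative of Ndufa4, which is a subunit of complex IV despite its name, and Cox4i2 is the isoform of Cox4i1 found in lung and vessels; Ndufa4l2 and Cox4i2 are also used as markers of pericytes. Ndufa4l2 (chr10:127514939-127517152) was at 3.43, 3.33, 3.98, 3.91 and 3.47 in the GFP-naive libraries, and from 0.61 to 1.05 (median 0.71) in the 6 α9k1-naive libraries. The groups were far apart, with a log2 fold change of -2.23 ± 0.35 (SE, adjusted p = 3.32e-04). It had the lowest mean level of the 97 members. In the crushed groups it was at 1.74, 1.64, 3.18 and 2.67 in the GFP-crush libraries and 1.74, 2.28, 0.56 and 0.92 in the α9k1-crush libraries, so that GFP-crush lay below GFP-naive (-1.62 ± 0.35 SE, adjusted p = 0.00794) and the α9k1-crush and GFP-crush ranges overlapped. With covariates the fitted difference of α9k1-crush from GFP-crush was 0.37 ± 0.75 (SE, adjusted p = 0.936), of opposite sign to the difference of the group means; without covariates it was -0.93 and was called lower (adjusted p = 0.0297), so the direction depended on the covariates. Its interaction term of 2.59 ± 0.71 (SE, adjusted p = 0.106) missed the threshold, and it ran from 2.022 to 2.998 (adjusted p 0.0717 to 0.286) when a library was left out, passing in 6 of 19 fits; without covariates it was 1.92 and passed (adjusted p = 0.00463). Ndufa4 had group means of 9.13 in GFP-naive, 8.87 in α9k1-naive, 9.42 in GFP-crush and 9.11 in α9k1-crush and was not called in any of the 4 comparisons with covariates. Without covariates it was called in all 4: lower with the integrin, at -0.27 in naive and -0.31 in crushed ganglia, and higher with crush, at 0.28 in the GFP and 0.24 in the α9k1 groups.

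Cox4i2 was at 5.63, 5.84, 5.79, 5.82 and 5.64 in the GFP-naive libraries and 4.94, 4.44, 5.24 and 4.81 in the GFP-crush libraries. All GFP-crush libraries were lower, with a log2 fold change of -1.12 ± 0.19 (SE, adjusted p = 0.00229). Within the integrin groups it ranged from 4.81 to 5.22 (median 5.11) in the 6 α9k1-naive libraries and was at 3.56, 3.88, 2.73 and 3.46 in the α9k1-crush libraries. Crush again went with the lower level (-1.21 ± 0.35 SE, adjusted p = 0.0549), while Cox4i1, the broadly used form, was higher in GFP-crush (0.35 ± 0.12 SE, adjusted p = 0.0591) and not called in α9k1-crush against α9k1-naive (0.46 ± 0.21 SE, adjusted p = 0.222). The low-level isoforms Cox6b2 and Cox7a1 were not called in any comparison with covariates. Cox6b2 had means of 3.65 in GFP-naive, 3.33 in GFP-crush, 2.94 in α9k1-naive and 1.56 in α9k1-crush, and Cox7a1 3.52 in GFP-naive, 3.001 in GFP-crush, 3.37 in α9k1-naive and 2.03 in α9k1-crush. Without covariates both were called lower in α9k1-crush, against GFP-crush (-1.77 and -0.97) and against α9k1-naive (-1.38 and -1.34), and Cox6b2 was also lower with the integrin in naive ganglia (-0.71). A list of 5 pericyte markers, added after the data were seen, had 5 lower in α9k1-naive and 5 lower in GFP-crush against GFP-naive, with list means of 3.69 to 4.24 in GFP-naive, 1.09 to 1.87 in α9k1-naive, 1.94 to 3.01 in GFP-crush and 1.83 to 2.58 in α9k1-crush. Their part in the changes of Ndufa4l2 and Cox4i2 was not tested.

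**Figure D5:**
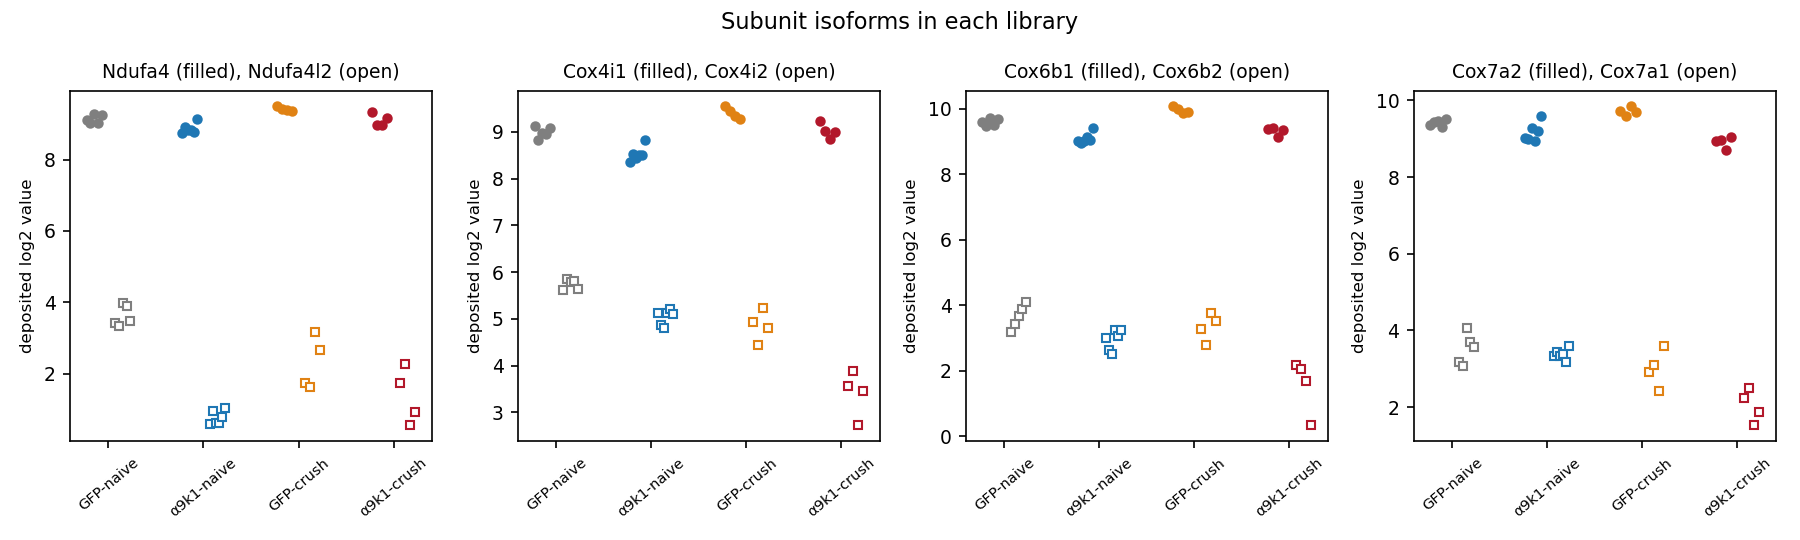
Log2 level of Ndufa4 and Ndufa4l2, Cox4i1 and Cox4i2, Cox6b1 and Cox6b2, and Cox7a2 and Cox7a1 in every library (points), by group. Ndufa4l2 fell from a mean of 3.62 in GFP-naive to 0.77 in α9k1-naive, while Cox4i2 was lowest in α9k1-crush (3.41).

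Related mitochondrial genes were counted from lists that hold no member. In α9k1-naive versus GFP-naive, the counts stand beside 11.4% of all genes higher and 17.6% lower. Assembly factors of complex IV, which insert copper and haem, gave 0 higher and 9 lower of 21, and genes for maintenance and transcription of mitochondrial DNA 0 higher and 8 lower of 16, including Polrmt, the mitochondrial RNA polymerase (-0.79 ± 0.19 SE, adjusted p = 0.00686). Carriers and channels of the mitochondrial membranes gave 0 higher and 5 lower of 9, with Vdac1, the outer membrane pore, at -0.78. The citric acid cycle and pyruvate dehydrogenase gave 0 higher and 5 lower of 17, and glycolysis 3 higher and 2 lower of 18. Of the assembly factors of the other complexes, complex I gave 1 higher and 0 lower of 7, complex II 0 higher and 1 lower of 2, complex III 0 higher and 1 lower of 6 and complex V 0 higher and 1 lower of 4. Transcription factors for nuclear respiratory genes gave 1 higher and 1 lower of 7: Esrra, the oestrogen-related receptor α, was at -1.08 ± 0.17 (SE, adjusted p = 4.43e-04) and Gabpb1, the partner of GABPα, at 0.47 ± 0.19 (SE, adjusted p = 0.0904). Genes of the hypoxia response gave 4 higher and 2 lower of 14, with Egln3, an oxygen-sensing hydroxylase, at -1.64.

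In GFP-crush versus GFP-naive, with 7.39% of all genes higher and 15.7% lower, the same lists gave 7 higher and 0 lower of 17 for the citric acid cycle, with Mdh2 (malate dehydrogenase) at 0.49, 7 higher and 1 lower of 18 for glycolysis and 4 higher and 0 lower of 9 for carriers. For the transcription factors the count was 0 higher and 3 lower of 7: Yy1 (-0.997), Nrf1 (-0.80) and Gabpa (-0.43), whose motifs were counted above, were lower. For mitochondrial DNA genes it was 0 higher and 1 lower of 16 (Tfam, which packages and transcribes mitochondrial DNA, -0.65), for complex IV assembly 3 higher and 1 lower of 21, and for the hypoxia response 0 higher and 6 lower of 14 (Vegfa, -1.10). In α9k1-crush versus GFP-crush, 0 of the 120 genes of these 11 lists were called by limma with covariates. At an unadjusted p under 0.05, 4 were higher and 5 lower, beside 662 higher and 489 lower of all 12629 genes. Without covariates 42 were higher and 30 lower at that unadjusted p, beside 3652 higher and 3504 lower of all genes. In α9k1-crush versus α9k1-naive, with 4.47% of all genes higher and 5.27% lower, the citric acid cycle gave 5 higher and 0 lower of 17, glycolysis 1 higher and 2 lower of 18 and the hypoxia response 1 higher and 3 lower of 14. Of the members with a promoter window, 25 were lower in α9k1-naive and 10 of these held a motif, and 25 were higher in GFP-crush and 11 of these held a motif, beside 30 of 74 over all members with a window.

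Within groups, members varied together. After group means were removed, the median correlation over the 19 libraries was 0.35 between pairs of nuclear members and 0.62 between pairs of mitochondrial members. It was 0.16 between a nuclear and a mitochondrial member, and 0.0024 between pairs of any genes. All pairs share libraries and depth, and α9k1-naive replicate 6 was kept in. The pairs of any genes were not matched to the members by level. Reads of some members cannot be assigned with certainty: 21 members have a near-identical copy in the table and 24 share exon bases with another gene of the table. Further members share exon bases with genes outside the table. The library kit does not keep strand. Among the 76 members without a copy, 26 were lower in α9k1-naive and 1 higher, 26 were higher in GFP-crush and 2 lower, and 2 were lower in α9k1-crush against GFP-crush (mt-Cytb and mt-Nd1).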

How the data were processed

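RNA was sequenced from 19 libraries of sorted, GFP-positive cells of the dorsal root ganglia, and the groups were taken from the sample labels. Alignment by the authors was to mm10 with STAR; they filtered alignments with SAMtools, counted reads per gene with Salmon, removed genes with few reads, and normalised the counts for gene length and depth with cqn; versions are not given in the sources used here. The deposited values are log2 expression values after this normalisation, not counts, so limma was used in place of a count test. cqn equalises libraries over length, which can leave or remove trends of fold change with length. The value table carries no gene names and was read in the row order of the deposited gene table; in that order the mean of each row correlated with the authors' average expression at r = 0.96, and at 0.08 when the rows were shifted by 1. The gene table also holds the log2 fold changes and p-values that the authors obtained from their own comparisons, which were not used.

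The library metrics the authors deposited, from Picard, are counts of reads and bases, fractions of reads or bases, percent of AT and GC dropout, and ratios of coverage. Depth was 36387140 to 87576777 read pairs per library, and the number of libraries limits the precision. The first 3 principal components of 48 metrics (45.9%, 24.1% and 11.5% of variance) were covariates, as in the study. Its batch term was left out because the labels give no batch. limma (version 3.58.1, R 4.3.3) was fitted to all 12629 genes and 4 groups with empirical Bayes, p-values were two-sided and adjusted by Benjamini-Hochberg over all genes, and the threshold was 0.1. The fit was tested on simulated data. Near-identical copies were found with blastn 2.17.0 (at least 95% identity over at least 200 bases of the reference transcripts). Means, motifs and figures were made with Python 3.11.15, pandas 2.3.3, numpy 2.4.6, scipy 1.17.1 and matplotlib 3.10.9.

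The members and all gene lists were chosen with earlier results of these data known. Named members are in each comparison the called members at both ends of log2 fold change (5 at each end), any called in the interaction, the mitochondrial members, complex II, Cycs, Cyc1, core subunits and isoform families; 1 member is not reported here, and others are named as chosen after their values were seen. Alternatives were no covariates, only the groups compared, a filter on low values, quantile normalisation, median centring, removal of a length and GC trend, the replicate number as a block, and each library left out. Removal of that trend without covariates, and members without a copy, were added after the data were seen.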

Additional observations from a re-analysis of the deposited data

Results flagged for a closer look

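Each level of a named member, and the means over nuclear and mitochondrial members, was examined in the 4 groups for a library whose distance from the nearest of the others was large for the range of its group (Dixon's test). Of 192 group ranges examined, 21 held such a library; chance gives about 1 in 20, and members of a library are not independent. All values are log2 levels, given against the range of the other libraries of the group.

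α9k1-naive replicate 6 accounted for 8 of the 21, each time as the highest library. Its mean over the nuclear members was 7.59 against 7.29 to 7.35. The core subunits Ndufs7 and Ndufs8 were at 8.67 against 8.34 to 8.44 and 8.25 against 7.99 to 8.07, and the accessory subunit Ndufb9 at 9.55 against 9.10 to 9.23. In complex III, Uqcr11 was at 10.24 against 9.70 to 9.89 and the mitochondrial mt-Cytb at 9.94 against 9.39 to 9.58. In complex IV, Cox4i1 was at 8.83 against 8.35 to 8.52 and Cox8a at 10.52 against 9.76 to 9.99. This is the library with the larger share of bases between genes, and its part in these levels was not tested.

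The remaining libraries of α9k1-naive with such a value were replicate 1 for mt-Atp6 (2.34 against 1.36 to 1.64), replicate 2 for Cyc1 (8.11 against 8.33 to 8.45), replicate 3 for Atp5h (3.41 against 4.14 to 4.56) and replicate 5 for Ndufv1 (7.72 against 7.96 to 8.06). Replicate 3 is also the library with the high mean of erythrocyte genes. In α9k1-crush, replicate 3 was the lowest for Cox8a (9.88 against 10.13 to 10.15), Ndufb9 (9.27 against 9.52 to 9.57) and Ndufs8 (7.96 against 8.18 to 8.21), replicate 2 the lowest for Sdhd (7.50 against 7.77 to 7.82) and Uqcrc1 (9.47 against 9.77 to 9.80), and replicate 1 the highest for the mean of the mitochondrial members (6.73 against 6.41 to 6.46). In the GFP groups, GFP-naive replicate 3 was low for mt-Nd2 (6.25 against 6.67 to 6.84), and GFP-crush replicate 2 was high for Cox7a2l (7.80 against 7.56 to 7.57) and low for mt-Nd6 (5.79 against 7.02 to 7.27).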

How the results depend on the processing

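Counts of called members and medians of the nuclear and mitochondrial members were recomputed under each alternative, and those given moved by over 1.5 times (counts) or by more than the SD between libraries (medians); the causes were not tested. The integrin effect is α9k1 against GFP, and the crush effect is crush against naive. Without covariates, the integrin effect without crush gave 0 higher and 75 lower (nuclear median -0.35), the integrin effect after crush 8 and 72 (nuclear median -0.52), the crush effect in GFP 58 higher, the crush effect in α9k1 46 and 12 (mitochondrial median -0.28) and the interaction 9 and 20 (nuclear median -0.080); Uqcr11 changed direction in the integrin effect without crush (-0.046). With the length and GC trend removed, 2 members were lower in the integrin effect after crush and 1 in the crush effect in α9k1. With that trend removed and no covariates, the integrin effect after crush gave 17 higher and 40 lower (nuclear median -0.087, mitochondrial -1.06), the crush effect in GFP 5 lower, the crush effect in α9k1 59 and 6 (mitochondrial median -0.087) and the interaction 22 and 7 (nuclear median 0.15, mitochondrial -0.065). With a fit on no other groups than those compared, the integrin effect without crush gave 0 higher and 22 lower, the integrin effect after crush 0 lower (mitochondrial median -0.60), the crush effect in GFP 5 higher and the crush effect in α9k1 0 and 0 (mitochondrial median -0.91). Median-centred libraries gave 58 higher in the crush effect in GFP (nuclear median 0.37) and a nuclear interaction median of -0.10. Quantile normalisation gave 9 higher in the crush effect in GFP (nuclear median 0.14) and 5 higher in the crush effect in α9k1. Without the lowest 25% of genes, 1 member was lower in the crush effect in GFP, and the mitochondrial median in the integrin effect after crush was -1.13. Members without a near-identical copy gave 2 lower in the integrin effect after crush (mitochondrial median -1.12) and 1 lower in the crush effect in α9k1. Smaller shifts that passed 1.5 times or turned the sign were those of the nuclear median in the integrin effect after crush from -0.19 to -0.10 with quantile normalisation or the trend removed, of the mitochondrial median in the crush effect in α9k1 from -0.59 to -0.36 without the lowest 25% of genes or without members with a copy, of the mitochondrial interaction median from -0.53 to -0.30 with the trend removed, of the nuclear interaction median from 0.025 to at most 0.11, and of the mitochondrial median in the crush effect in GFP, -0.044, which lay between -0.17 and 0.18.

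With 1 library left out, for the integrin effect without crush, the integrin effect after crush, the crush effect in GFP, the crush effect in α9k1 and the interaction in this order, the number called higher was 0 to 1, 0 to 0, 4 to 43, 1 to 7 and 0 to 1, and the number called lower 26 to 40, 0 to 5, 2 to 4, 0 to 2 and 0 to 0. The nuclear median was -0.30 to -0.17, -0.28 to -0.050, 0.18 to 0.26, 0.21 to 0.35 and -0.030 to 0.15, and the mitochondrial median -1.17 to -0.78, -2.04 to -1.21, -0.18 to 0.089, -0.75 to -0.41 and -0.87 to -0.23.

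With the replicate block, the integrin effect without crush gave 0 higher and 23 lower (nuclear median -0.31, mitochondrial -1.22; calls lost were Cyc1, Ndufs8, Cox4i1, Cox6b1, Atp5h, Uqcr11 and mt-Atp6, the last at -1.45), the integrin effect after crush 0 lower, and the crush effect in α9k1 0 higher and 0 lower (nuclear median 0.37). The labels do not say that a replicate number marks a shared animal or day. Over 25 pairs of libraries with the same number the correlation of their deviations from the group means was -0.27 to 0.15, 4 pairs were over 0.1, and 3 of 19 libraries correlated best with their own number, so the libraries were taken to share only a number.

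Of the named members' calls, those lost were 30 of 50 with a fit on no other groups than those compared and 22 with the replicate block. After quantile normalisation 12 were lost, with the trend removed 11, and with the trend removed and no covariates 8. With median centring 6 were lost and without covariates 2 (Uqcr11, and Cox7b at 0.32 in the crush effect in α9k1). Groups of 4 to 6 libraries and covariates that differ between groups limit the α9k1-crush comparisons most.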
